A study of Schmidtea mediterranea with 36 samples.

Results

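agat-1 is a planarian transcript used as a marker of late epidermal progenitors, cells that have left the cell cycle and are on their way to the skin. It was followed here as the single transcript dresden_comp920_c0_seq1, 1 of 26558 transcripts in each table. It was chosen by its name as a known marker, though with earlier results of these data known. The deposited tables give transcript numbers without gene names, so the identity of this transcript with agat-1 was taken from the choice of the marker and was not checked against a sequence. RNA was sequenced from cells of asexual Schmidtea mediterranea planarians, fed on veal liver and selected for the same body area, that had been starved for 1, 7 or 30 days (1dS, 7dS and 30dS). None of these groups was treated with RNAi. At each time 3 populations were sorted by FACS after staining with Hoechst and Calcein. X1 is the fraction of stem cells in S or G2/M phase. X2 mixes G0/G1 stem cells with their progeny, and Xins is made of differentiated cells. With 4 replicates in each of 9 groups there were 36 libraries. A sample pools several planarians, in a number not stated for every time, and nothing states that equal replicate numbers in different populations or times came from the same planarians, so the p-values below are set by the spread among samples, which may be technical.

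Planarian stem cells, the neoblasts, are the only dividing somatic cells of the adult worm, and they replace the epidermis without pause. In this lineage, a neoblast that takes the epidermal fate stops dividing and passes through stages marked in turn by prog and agat transcripts while it moves out to the body surface. agat genes are named for arginine:glycine amidinotransferase, the enzyme that takes the first step of creatine synthesis. In textbook accounts a marker of such postmitotic progeny lies outside X1, because cells without replicated DNA fall outside the X1 gate. Neither prog transcripts nor other agat transcripts are named in the sources used here, so agat-1 could not be set beside the other stages of the lineage.

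agat-1 was above 0 in each of the 36 libraries, and its level separated Xins from X1 and X2 more than it separated any of the times. The values are normalized TPM, the TPM of kallisto, a measure of transcript abundance per length, divided by a size factor per library and deposited in a table per population. Median-of-ratios factors recomputed from the deposited values (transcripts above 0 in all libraries, with a mean of at least 5) were 0.93 to 1.12 within the tables. Over the 36 libraries together they were 0.755 to 0.844 in X1, 0.975 to 1.03 in X2 and 1.17 to 1.44 in Xins, so levels were not on 1 scale across the tables by this measure. They hold no read counts and give no counting error. In X1 at 1dS the 4 replicates had 181, 423, 247 and 225 normalized TPM of agat-1. In X1 at 7dS they had 13.4, 114, 69.7 and 134. At 30dS they had 33.4, 118, 78.2 and 201. The 4 libraries of 7dS were all below those of 1dS, and replicate 1 was the lowest at 7dS and at 30dS.

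In X2 at 1dS agat-1 stood at 204, 295, 199 and 290 normalized TPM in replicates 1 to 4. At 7dS the X2 values were 100, 149, 68.2 and 174, and at 30dS 152, 183, 94.5 and 180. The X2 libraries of 1dS were all above those of 7dS and of 30dS. In Xins at 1dS the values were 5.47, 7.13, 5.68 and 25.1 normalized TPM. At 7dS they were 1.46, 16.7, 10.1 and 9.71, and at 30dS 0.949, 10.6, 6.77 and 1.24. The 3 times overlapped in Xins, and the spread of single libraries there was as wide as the level itself. Group means of normalized TPM (± SD, n = 4) were 269 ± 106, 82.5 ± 53.3 and 107 ± 71.0 in X1 at 1dS, 7dS and 30dS. They were 247 ± 52.7, 123 ± 47.5 and 152 ± 40.8 in X2. In Xins they were 10.8 ± 9.53, 9.49 ± 6.26 and 4.89 ± 4.66.

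**Figure D1:**
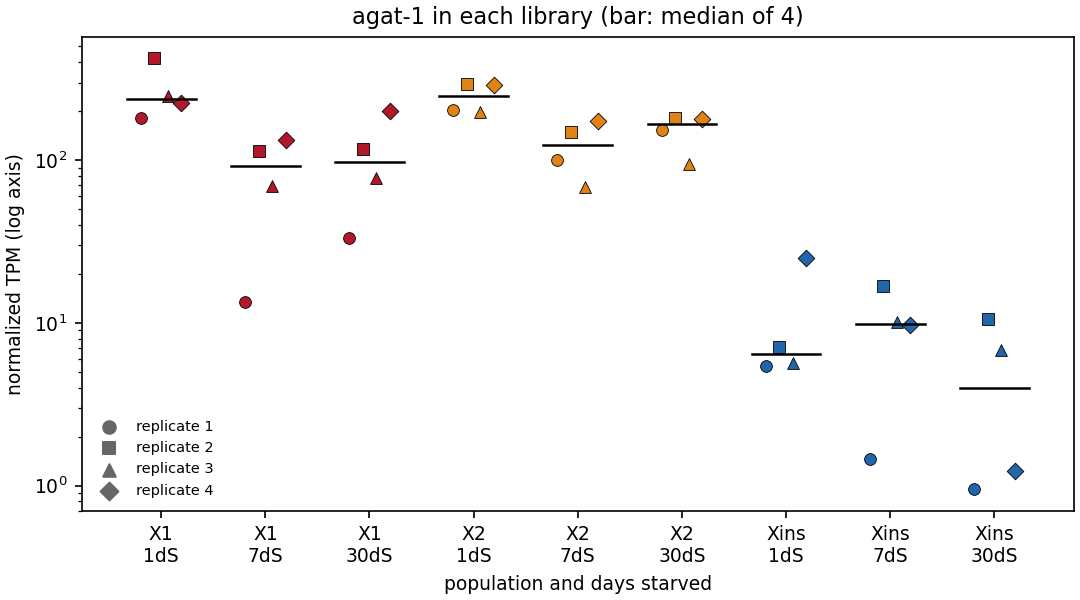
agat-1 in each of the 36 libraries, in normalized TPM on a log axis, by population and days starved; each symbol is a replicate number and each bar the median of 4 libraries. The X1 libraries lie between 13.4 and 423, the X2 libraries between 68.2 and 295 and the Xins libraries between 0.949 and 25.1.

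Among the 26558 transcripts of a library, ranked by level per length, agat-1 held places 399 to 5055 in X1, 372 to 1753 in X2 and 4683 to 17278 in Xins. The median place was 848 in X1, 645.5 in X2 and 9852.5 in Xins. To set the populations side by side, all libraries were scaled to the same total of 1000000, because column sums ran from 638389 to 1935392. On this scale the order of the group means was X1 at 1dS (246), X2 at 1dS (221), X2 at 30dS (182), X2 at 7dS (145), X1 at 30dS (120), X1 at 7dS (99.7), Xins at 7dS (11.8), Xins at 1dS (10.8) and Xins at 30dS (4.71). All 8 pairs of neighbours in this order overlapped in their libraries, X1 and Xins at 7dS included.

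Xins cells contained far less agat-1 than X2 cells. Populations were called different at an adjusted p under 0.01 (limma, Benjamini-Hochberg over all transcripts tested). Rescaled means at 1dS were 20.4-fold lower in Xins than in X2. The gap was 12.4-fold at 7dS and 38.6-fold at 30dS. Single Xins libraries moved these folds, to 43.8 at 1dS without replicate 4 and to 73.0 at 30dS without replicate 2. By replicate number the folds ran from 12.6 to 46.0 at 1dS, from 6.51 to 71.6 at 7dS and from 16.1 to 213 at 30dS. No Xins library reached the lowest X2 library at any time (exact two-sided permutation test at each time, p = 0.0286 with 4 against 4). The share of all transcripts separated in this way was not computed, here or in the comparisons below. On the scale of log2(rescaled value + 1), which understates changes of low levels, the difference was -4.53 (SE 0.54, limma adjusted p = 7.3e-06) at 1dS. It was -3.72 (SE 0.85, adjusted p = 0.0024) at 7dS and -5.23 (SE 0.67, adjusted p = 3.1e-05) at 30dS. Such a call was common, since 42.5%, 41.4% and 39.6% of the transcripts tested differed between Xins and X2 at 1dS, 7dS and 30dS, and 10.7%, 9.55% and 11.1% were lower in Xins. Its size was less so, as 35 of 16297 transcripts had a lower difference than agat-1 at 1dS, 65 of 17713 at 7dS and 19 of 16665 at 30dS. In sorted bulk samples fewer cells of a type and less RNA per cell cannot be told apart.

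Against X1, agat-1 in Xins was 22.7-fold lower at 1dS and 25.5-fold lower at 30dS, with no overlap between the libraries. The first fold was 48.7 without Xins replicate 4, and the second was 14.3 without X1 replicate 4 and 48.3 without Xins replicate 2. By replicate number the folds ran from 9.12 to 58.5 at 1dS and from 9.17 to 147 at 30dS. The log2 difference was -4.78 (SE 0.54, limma adjusted p = 2.7e-06) and -4.35 (SE 0.67, adjusted p = 8.1e-05). Between Xins and X1, 53.4%, 55.3% and 57.4% of the transcripts tested were called at the 3 times, and at 1dS and 30dS 16% and 15.3% were called lower in Xins. At 7dS the Xins mean was 8.48-fold lower, but X1 replicate 1 (10.9 rescaled TPM) fell among the Xins libraries (1.41 to 21.7). There the difference of -2.81 (SE 0.85) had a limma adjusted p of 0.0108 and was not called, and the exact two-sided permutation test over 4 against 4 libraries gave p = 0.0857. Libraries of the same replicate number deviated together at this time, and with the replicate number as a block the same difference had an SE of 0.43 and an adjusted p of 7.6e-05, past the threshold. In each of the 4 numbers Xins held less agat-1 than X1, 6.32-fold to 12.1-fold less. Without X1 replicate 1 the difference was -3.64 (adjusted p = 7.0e-04), and without Xins replicate 2 it was -3.22 (adjusted p = 0.0084), both called.

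agat-1 was found in X1 as well as in X2, although it is used as a marker of postmitotic cells. No difference between X2 and X1 was called at any time, and the mean of X1 at 1dS was the highest of the 9 groups. X2 against X1 differed by -0.25 (SE 0.54, limma adjusted p = 0.842, 95% interval -1.41 to 0.91) at 1dS. At 7dS the difference was 0.91 (SE 0.85, adjusted p = 0.491, interval -0.94 to 2.76) and at 30dS 0.87 (SE 0.67, adjusted p = 0.346, interval -0.58 to 2.33). Without X2 replicate 3 the difference at 1dS turned to 0.061. Without X1 replicate 1 it was 0.077 at 7dS and 0.45 at 30dS, where it was 1.41 without X1 replicate 4 and 0.21 with median-of-ratios scaling. The intervals are wide and do not show that X1 and X2 hold the same amount. By replicate number, X2 was above X1 in 1 of 4 pairs at 1dS, in 3 of 4 at 7dS and in 3 of 4 at 30dS. Of the transcripts tested, 8.39%, 21.1% and 25.4% were called between X2 and X1 at the same times.

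The populations were also compared in cdk1, the cyclin-dependent kinase of mitosis. Rescaled levels of cdk1 were 38.4 to 78.6 in the 12 X1 libraries, 1.2 to 9.34 in X2 and 0 to 0.270 in Xins. The 3 populations did not overlap in cdk1, which was highest in X1 and lowest in Xins. A high level of cdk1 in X1 cannot show that X1 was free of cells that do not divide. agat-1 shared with cdk1 the low level in Xins and not the step from X1 to X2. There cdk1 was lower at each time (log2 difference -2.68, -4.15 and -3.56, limma adjusted p = 2.9e-05, 3.3e-07 and 2.4e-07). Of the 19 transcripts in the mitotic S phase list described below, 5 were called lower in X2 than in X1 at each time and 0 higher. Of all transcripts tested, 8.39%, 21.1% and 25.4% were called in either direction, and the share called lower alone was not computed. The list was not confined to X1. dresden_comp1583_c0_seq1, among its most abundant, had 401 ± 111 rescaled TPM in X1 at 1dS, 523 ± 115 in X2 and 186 ± 64.6 in Xins (SD, n = 4). The list had a median difference of -0.32, -0.24 and -0.38, beside 0.11, 0.18 and 0.41 over all transcripts tested. Whether postmitotic epidermal cells lay within the X1 gate was not tested, and no other marker of those cells is named in the sources used here.

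**Figure D2:**
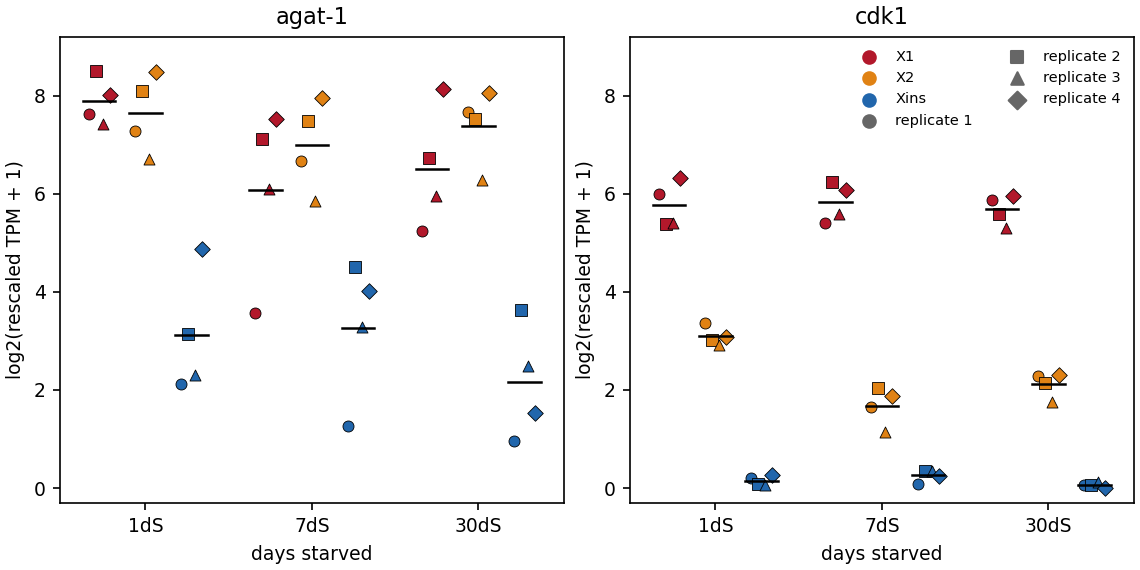
agat-1 (left) and cdk1 (right) as log2(rescaled TPM + 1) by days starved, coloured by population, with symbols for replicate numbers and bars for the mean of 4 libraries. For cdk1 the populations form 3 separate levels, while the agat-1 libraries of X1 and X2 overlap at each time and X1 replicate 1 at 7dS, at 10.9 rescaled TPM, lies among the Xins libraries.

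agat-1 was lower at 7dS than at 1dS in X1 and in X2. The comparison addresses how the nutritional status of the animal shows in the transcripts of its sorted cells, and times were compared within the deposited table of a population at an adjusted p under 0.1. In X1 the mean fell 3.26-fold, from 269 to 82.5 normalized TPM, and in X2 it fell 2.01-fold, from 247 to 123. In both populations the 4 libraries of 7dS lay below the 4 of 1dS (exact two-sided permutation test, p = 0.0286). That is the lowest value possible with 4 against 4. Adjusted over 18 comparisons of times and populations, the p of this exact test was 0.0643. How common such a separation was among all transcripts was not computed.

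In X1 the log2 change at 7dS was -2.03 (SE 0.68, limma adjusted p = 0.0878), close to the threshold. Of the 13269 transcripts tested, 13.7% were called and 6.92% were called lower, and 26 had a lower log2 change than agat-1. Without X1 replicate 1 of 7dS the change was -1.32 (adjusted p = 0.148). The call was also lost without 7dS replicate 2 (adjusted p = 0.109) or 3 (0.152) and without 1dS replicate 2 (0.219), 3 (0.164) or 4 (0.122), while the change kept its direction. With the libraries rescaled to equal totals, the change was -1.81 (adjusted p = 0.234) and the groups overlapped. Rescaling moved the median change of all transcripts from 0.04 to 0.20, and relative to that median agat-1 stood at -2.06 as deposited and at -2.01 rescaled.

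In X2 the log2 change at 7dS was -1.07 (SE 0.31, limma adjusted p = 0.0520). Of 15003 transcripts, 16.4% were called and 6.79% were called lower, and 585 had a lower log2 change. The call was lost without 1dS replicate 2 (adjusted p = 0.114) and without 7dS replicate 1 (0.122) or 3 (0.124). After rescaling the change was -0.65 (adjusted p = 0.450), while the median of all transcripts moved from 0.05 to 0.36, which left agat-1 at -1.12 and -1.01 relative to the median.

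Between 7dS and 30dS no further change of agat-1 was called in any population. In X1 the log2 change was 0.51 (SE 0.68, limma adjusted p = 0.949, 95% interval -0.95 to 1.98), in X2 0.35 (SE 0.31, adjusted p = 1.00, interval -0.33 to 1.03) and in Xins -0.93 (SE 0.73, adjusted p = 0.975, interval -2.51 to 0.66). Without 7dS replicate 1 the change in X1 turned to -0.20. Calls were rare in these comparisons, at 0.00754%, 0.127% and 0.141% of the transcripts tested. At 30dS against 1dS the mean of X1 was 2.5-fold lower (log2 change -1.51, SE 0.68, adjusted p = 0.220, exact p = 0.0571) and that of X2 1.62-fold lower (-0.72, SE 0.31, adjusted p = 0.148), neither called (in X2 the change was -0.25 rescaled and -0.21 with quantile normalization), with 9.79% and 20.7% of transcripts called in these comparisons. The X2 libraries of 30dS were nevertheless all below those of 1dS (exact permutation p = 0.0286), which no longer held after rescaling (exact p = 0.60). The comparisons of 7dS and of 30dS against 1dS share the 1dS libraries and are not independent of each other.

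In Xins agat-1 showed no called change with starvation. The log2 change was -0.21 (SE 0.73, limma adjusted p = 0.931, 95% interval -1.79 to 1.38) at 7dS and -1.14 (SE 0.73, adjusted p = 0.486, interval -2.72 to 0.45) at 30dS against 1dS, where 5.11% and 7.16% of transcripts were called. The level at 1dS rested on replicate 4, which had 25.1 normalized TPM against 5.47 to 7.13 in the other libraries. The change at 7dS turned to 0.27 without that library, to 0.39 without 7dS replicate 1 and to 0.16 after rescaling.

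A fall called in X1 and X2 and not in Xins does not show that the populations responded differently, so the differences of the responses were tested over the 36 rescaled libraries at an adjusted p under 0.1. None was called for agat-1. The response at 7dS was higher by 1.97 (SE 1.09, limma adjusted p = 0.597) in Xins than in X1 and by 0.81 (SE 1.09, adjusted p = 1.00) in Xins than in X2, and it was higher by 1.16 (SE 1.09, adjusted p = 0.988) in X2 than in X1. Leaving out 1 library moved these from 1.13 to 2.63, from 0.39 to 1.47 and from 0.33 to 1.65, and the lowest of the first and last came without X1 replicate 1 of 7dS. At 30dS the same differences were 0.42, -0.70 and 1.13, with adjusted p of 0.930 or above. The first of these turned to -9.4e-04 without X1 replicate 1 of 30dS and to -0.069 without Xins replicate 2 of 30dS. The other differences at 30dS kept their sign when 1 library was left out, from -1.20 to -0.12 and from 0.70 to 1.67. Of the 17034 transcripts tested, 1.66%, 2.3% and 1.5% were called at 7dS and 1.91%, 3.46% and 2.72% at 30dS, in the order given.

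**Figure D3:**
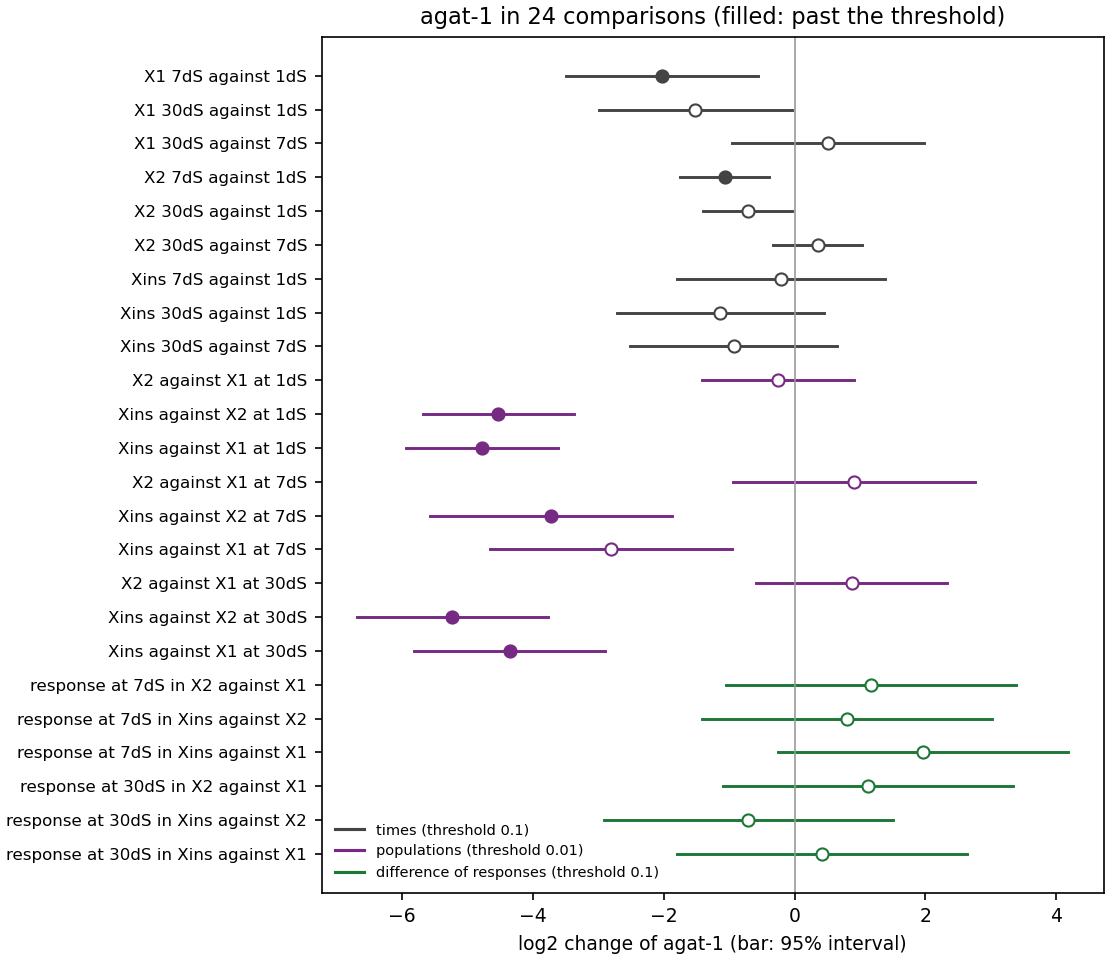
log2 change of agat-1 in 24 comparisons, with 95% intervals from limma; filled points are past the threshold of their family (0.1 for times and for differences of responses, 0.01 for populations). The 5 called differences between Xins and the other populations lie between -5.23 and -3.72, and the called changes with time are -2.03 in X1 and -1.07 in X2 at 7dS.

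The decline of agat-1 was set beside cdk1 and lists named for mitotic S phase, amino acid metabolism and tubulin. The mitotic S phase list, copied from the study's tables in shortened form, holds 19 transcripts and was picked by the study from the X1 libraries used here, so its direction in X1 is not independent evidence. At 7dS against 1dS, 19 of 19 fell in X1 and 19 of 19 in X2, and in Xins 11 of the 14 that passed the filter on low values. Its median log2 change was -1.09 in X1 and -1.31 in X2, beside 0.04 and 0.05 over all transcripts tested. Over all transcripts tested, 6.92%, 6.79% and 3.06% were called lower at 7dS in X1, X2 and Xins, and 6.77%, 9.56% and 2.05% higher. cdk1 changed by -0.15 (adjusted p = 0.605) in X1 at 7dS and was not called, while in X2 it fell by 1.79 (limma adjusted p = 0.0040). In X1, where cdk1 spanned 48.3 to 61.6 normalized TPM at 7dS, agat-1 spanned 13.4 to 134. Replicate 1, with the least agat-1, had 50.6 normalized TPM of cdk1. dresden_comp1583_c0_seq1, among the most abundant of the S phase list, went from 401 ± 111 to 165 ± 16.9 rescaled TPM there (SD, n = 4), where agat-1 had 99.7 ± 76.1 at 7dS.

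The list of alpha-amino acid metabolism was used because amidinotransferase works on arginine and glycine. It came from cct3A(RNAi) planarians, other libraries, also shortened to 19 transcripts. In X1 at 7dS, 1 of its 18 transcripts tested rose and 1 fell, with a median log2 change of -0.42, and in X2 5 of 17 rose and 1 fell, with a median of 0.26. In Xins 5 of 18 fell and none rose. Its most abundant transcript, dresden_comp2004_c0_seq1, was highest in Xins, the population with the least agat-1. At 1dS it had 612 ± 199 rescaled TPM in Xins and 31.9 ± 8.42 in X1 (SD, n = 4). In Xins at 30dS, the group with the lowest mean of agat-1, it had 418 ± 86.0. Of 6 tubulin transcripts, subunits of the microtubules that also build cilia, 1 fell in X1 at 7dS, 1 rose in X2 and 1 fell in Xins. The most abundant, dresden_comp152_c0_seq1 (matched to TUBB4B), stood at 1dS at 4138 ± 2307 rescaled TPM in X1, at 1645 ± 101 in X2 and at 2118 ± 123 in Xins.

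The transcripts most like agat-1 were found by Pearson's r of log2(rescaled value + 1) over the 36 libraries, among 7979 transcripts with a mean of at least 10. The libraries share totals and the large step from Xins to the other populations, so r is a description. The 5 highest were dresden_comp899_c0_seq1 (r = 0.98), dresden_comp4252_c0_seq1 (0.98), dresden_comp1355_c0_seq1 (0.96), dresden_comp1422_c0_seq1 (0.95) and dresden_comp1943_c0_seq1 (0.94). The median over the 7979 was -0.09, and 16 transcripts had an r over 0.9. None of the 5 has a gene name in the sources used here, and the last is in the amino acid metabolism list, whose median r was 0.04. The median was 0.74 for the S phase list, -0.37 for tubulin, and r was 0.65 for cdk1.

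dresden_comp899_c0_seq1 followed agat-1 most closely and at a like level per length. It had 323 ± 118, 113 ± 83.1 and 155 ± 110 rescaled TPM in X1 at 1dS, 7dS and 30dS (SD, n = 4). In X2 it had 295 ± 93.9, 149 ± 48.6 and 206 ± 47.8, and in Xins 13.0 ± 11, 14.9 ± 8.68 and 9.66 ± 8.59. Within the 12 libraries of a population its r with agat-1 was 0.97 in X1, 0.87 in X2 and 0.91 in Xins. dresden_comp4252_c0_seq1, at 32.4 ± 8.55 in X1 and 46.8 ± 19.7 in X2 at 1dS, had an r of 0.96, 0.95 and 0.93 in the same order. dresden_comp1943_c0_seq1 followed agat-1 over X1 (r = 0.92) and less within X2 (0.40).

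**Figure D4:**
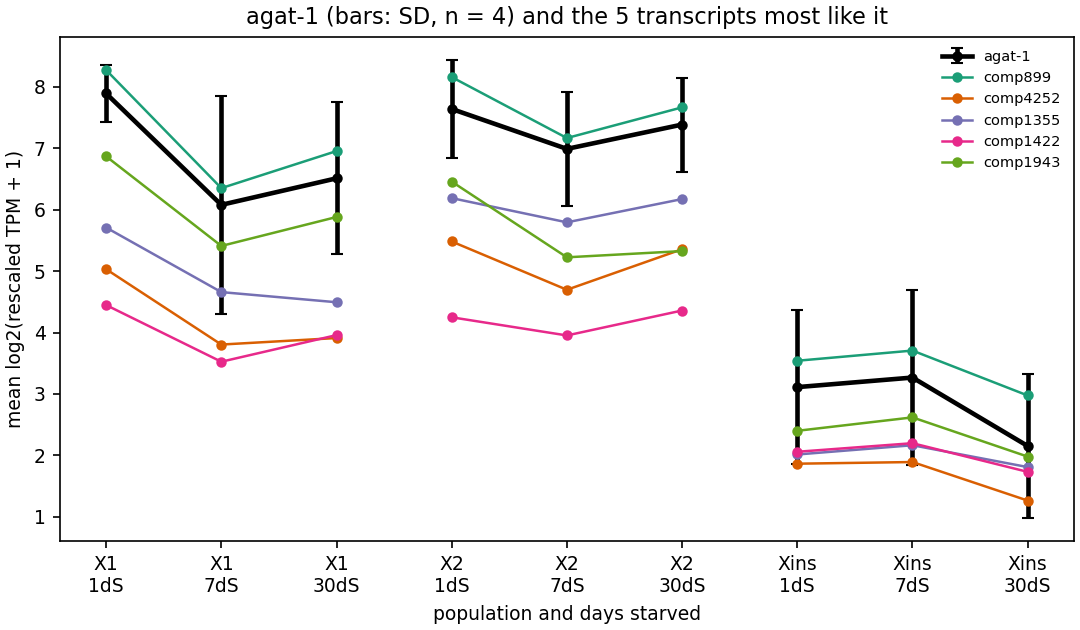
Mean of log2(rescaled TPM + 1) in each of the 9 groups for agat-1 (black, with bars for the SD over 4 libraries) and for the 5 transcripts with the highest r over the 36 libraries. The 6 lines share the drop in Xins, and dresden_comp899_c0_seq1 (r = 0.98) runs closest to agat-1.

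On the rescaled values, the libraries of a group also differed in agat-1 more than in most transcripts. The SD of its log2 values over 4 libraries was larger than that of 64.6% of transcripts of a mean of at least 10 in X1 at 1dS, and larger than that of 98.3% and 98.2% at 7dS and 30dS. In X2 the shares were 84.3%, 94.6% and 87.9%. In Xins they were 98.2% and 99.2% at 1dS and 7dS, and 96.3% at 30dS, where transcripts of a mean of at least 1 were used. These shares were not computed on the values as deposited. There the SD in X2 was 0.31, 0.60 and 0.44 at 1dS, 7dS and 30dS, against 0.80, 0.93 and 0.77 rescaled. It was larger as deposited in X1 at 1dS (0.52 against 0.47) and in Xins at 30dS (1.29 against 1.17).

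These deviations went with the replicate number. On the rescaled values agat-1 was above its group mean in 9 of 9 groups for replicate 2 and in 8 of 9 for replicate 4, and below it in 8 of 9 for replicate 1 and in 6 of 9 for replicate 3. As deposited the counts were 8 above for replicate 2, 7 above for replicate 4, 8 below for replicate 1 and 6 below for replicate 3. Replicate 1 was lower by a median of 0.99 on the log2 scale after rescaling, and by 2.5 in X1 at 7dS. Replicate 4 had the lowest totals, 638389 to 888634, against 1037338 to 1935392 in replicate 3, and the part that a shared day, sort or pool of animals had in these deviations was not tested.

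**Figure D5:**
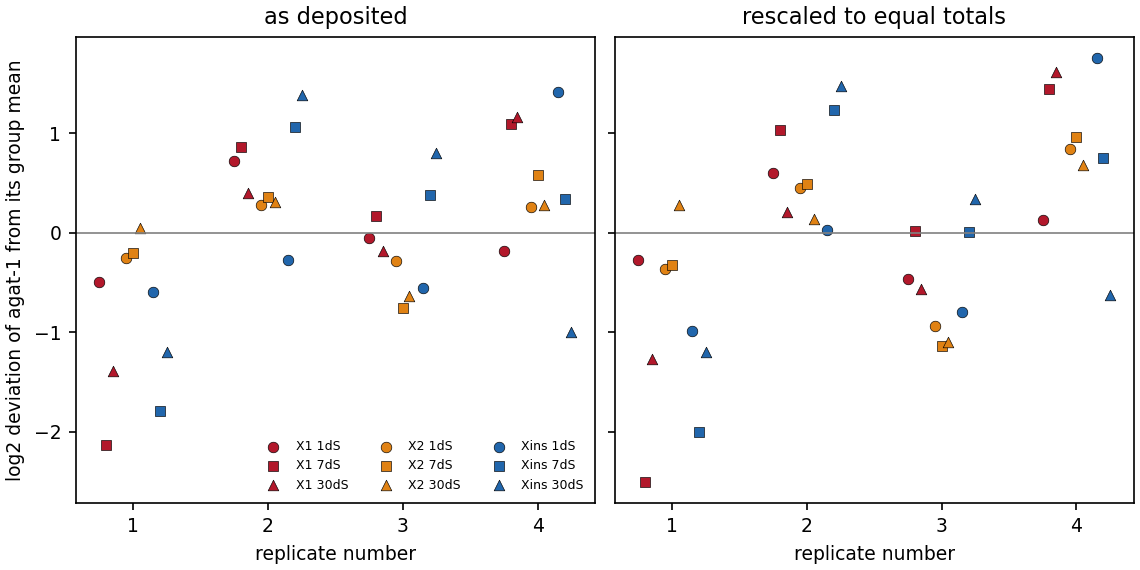
log2 deviation of agat-1 from its group mean by replicate number, as deposited (left) and rescaled to equal totals (right); colour is the population and symbol the days starved. Replicate 1 lies below 0 in 8 of 9 groups on both scales, and replicate 2 above 0 in 8 groups as deposited and 9 rescaled.

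Of the 7979 transcripts, 3 deviated from their group means most as agat-1 did over the 36 libraries, dresden_comp3226_c0_seq1 (r = 0.94), dresden_comp4252_c0_seq1 (0.93) and dresden_comp899_c0_seq1 (0.93), where the median over the 7979 transcripts was 0.47. As deposited their r was 0.91, 0.91 and 0.89, and the median was -0.06. dresden_comp3226_c0_seq1 shared these deviations but not the levels of agat-1. It had 46.9 ± 8.21 rescaled TPM in X1 at 1dS against 6.46 ± 3.91 in X2 and 1.67 ± 1.39 in Xins (SD, n = 4), and its r over the 36 libraries was 0.75.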

How the data were processed

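RNA of FACS-sorted cells (36 libraries) was sequenced by the authors in single-end TruSeq libraries, quantified with kallisto 0.43.0 on version 4 of the Dresden transcriptome after removal of ribosomal reads, and normalized in Sleuth. The deposited signal is normalized TPM (a TPM divided by a size factor per library), in 3 tables of 26558 transcripts and 12 libraries. It keeps no read counts, so depth per library is unknown and no count test was used.

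Values were transformed to log2(value + 1) and fitted with limma 3.58.1 (intensity trend, R 4.3.3), leaving out transcripts whose mean was under 1 over the fitted libraries. Times were fitted within a population as deposited (threshold 0.1), populations at 1 time after rescaling to a total of 1000000 (threshold 0.01), and differences of responses over the 36 rescaled libraries (threshold 0.1). The thresholds for times and for populations follow the study, whose Sleuth Wald test cannot be run on the deposited values. Exact two-sided permutation tests used the 70 arrangements of 4 against 4. Levels and likeness were computed with pandas 2.3.3 and numpy 2.4.6 in Python 3.11.15, and plots with matplotlib 3.10.9.

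Transcripts named are agat-1, cdk1, the 5 with the highest r, the 3 with the highest r of deviations, and the most abundant members of the lists, 3 of which per list the rule allowed. The marker and the lists were chosen with earlier results of these data known. The fits were tested on simulated data.

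Pairing by replicate number was taken to hold where the deviations of same-numbered libraries from their group means had an r over 0.1 for every number. It held for 6 of 9 pairs of populations (7dS and 30dS) and for 3 of 9 pairs of times. The rule was applied to the rescaled values and not to the values as deposited, on which the times were fitted. Alternatives changed the pseudocount (0.1), the filter (none, 5), the trend, the block, the scaling, the libraries of the fit and each replicate left out.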

Additional observations from a re-analysis of the deposited data

Results flagged for a closer look

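In Xins at 1dS, replicate 4 held 25.1 normalized TPM of agat-1, far above the other 3 libraries at 5.47, 7.13 and 5.68. The gap to the nearest library was 0.916 of the range of the group, above Dixon's 95% critical value for 4 samples. It was the only such library among 18 tests, over 9 groups on each of the scales as deposited and rescaled, and chance gives about 1 in 20. Replicate 4 was above its group mean in 8 of 9 groups on the rescaled scale.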

How the results depend on the processing

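The 5 called differences of agat-1 between Xins and X2 or X1 stayed called and negative under every alternative run. The called falls at 7dS did not. In X1 the change of -2.03 missed the threshold with no filter (-2.03, limma adjusted p = 0.150), with quantile normalization (-1.66, 0.206), rescaled (-1.81, 0.234) and with the compared times alone (-2.03, 0.114), and ranged from -2.39 to -1.32 when a replicate was left out. In X2 the change of -1.07 missed it with quantile normalization (-0.62, 0.435), rescaled (-0.65, 0.450) and with the compared times alone (-1.07, 0.103), and ranged from -1.26 to -0.82 when a replicate was left out. With the replicate block the changes at 30dS against 1dS passed the threshold in X1 (-1.51, limma adjusted p = 0.0441) and X2 (-0.72, 0.0096, but -0.25 and 0.273 with the block and rescaled). The numbers did not pair these groups by the rule, which was applied to rescaled values only. Xins against X1 at 7dS passed its threshold with the replicate block (-2.81, 7.6e-05), quantile normalization (-3.70, 3.7e-04), values as deposited (-2.89, 0.0031) and median-of-ratios scaling (-3.61, 2.2e-04), and ranged from -3.64 to -2.14 when a replicate was left out. The block changed no other call. Signs turned for uncalled values. Xins at 7dS against 1dS was 0.16 rescaled, also 0.16 rescaled with the block (chosen after seeing the data), and -0.56 to 0.39 when a replicate was left out. So ranged X1 at 30dS against 7dS (-0.20 to 0.98), X2 against X1 at 1dS (-0.53 to 0.061) and the difference in response at 30dS of Xins and X1 (-0.069 to 1.01). The exact p on rescaled values was 0.0571 for X1 at 7dS, 0.343 for X2 at 7dS and 0.60 for X2 at 30dS. Of the 5 transcripts most like agat-1, 3 were shared under Spearman's rho, 3 over the 9 group means and 1 at a mean of at least 50. Only dresden_comp899_c0_seq1 of the 5 reached that mean, so the last setting could keep no more and does not test the likeness. Counts of called transcripts moved over 1.5 times under some settings, at 7dS against 1dS from 1816 to between 782 and 2726 in X1, from 2453 to 1048 and 6258 in X2 and from 869 to 161 and 7311 in Xins. At 30dS against 1dS they moved from 1299 to 616 and 2027, from 3104 to 1676 and 7043 and from 1217 to 420 and 4979, and at 30dS against 7dS from 1 to 0, from 19 to 0 and 87 and from 24 to 0 and 128. X2 against X1 moved from 1367 to 957 and 2730, from 3746 to 2909 and 7919 and from 4234 to 3252 and 8398 at 1dS, 7dS and 30dS, and Xins against X2 from 7334 to 5194 and 11180 at 7dS and from 6599 to 4764 and 10223 at 30dS. Differences of responses moved from between 256 and 589 to between 61 and 2257. Without read counts, the low values of agat-1 in Xins have no known counting error.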
